A study of Mus musculus with 4 samples.

Results

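The circadian clock genes were examined in the epigonadal fat of fasted male mice, a visceral white adipose depot attached to the testis. They were chosen by name as 10 genes: the activators Arntl and Npas2, the repressors Per1, Per2, Per3, Cry1 and Cry2, the nuclear receptor repressors Nr1d1 and Nr1d2, and the output gene Dbp. A gene was measured where a probe set of the array names it alone, and 9 of the 10 were, each by 1 such probe set, out of 22180 genes in all. The only probe set of Per2 also lists a second gene, so Per2 has no value here. The whole-transcript arrays were hybridised with RNA of 4 groups, 1 array each. The first control carried floxed Irs1 and Irs2, the insulin receptor substrates, without Cre (Irs1/2-flox control). LDKO mice carried the same floxed genes with Cre recombinase under the albumin promoter (Albumin cre), which directs it to hepatocytes. The second control carried floxed Irs1, Irs2 and FoxO1 without Cre (Irs1/2:FoxO1-flox control), and LTKO mice carried these with Albumin cre. All 4 groups were fasted and kept on 12 h of light and 12 h of dark; LDKO and LTKO animals had an age of 4 months. The age of the controls, the length of the fast, the hour of collection and the number of mice behind an array are not stated in the sources used here.

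In the mammalian clock, ARNTL (also called BMAL1) pairs with CLOCK or its relative NPAS2 and activates genes that carry an E-box, among them the Per, Cry, Nr1d and Dbp genes. PER and CRY proteins return to the nucleus and inhibit that pair, and the REV-ERB receptors encoded by Nr1d1 and Nr1d2 repress Arntl, so that Arntl and its targets peak at opposite times of day. DBP, a transcription factor of the PAR bZIP family, binds D-boxes and passes the rhythm on to further genes. Fat holds such a clock of its own, and feeding, fasting and glucocorticoids are known to act on it.

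Values are log2 signals, on which 1 unit is a 2-fold difference. With 1 array per group there is no replicate spread, standard error, test or p-value for any difference below, and this small number of arrays limits the precision throughout. In bulk tissue, fewer cells of a type and less RNA per cell cannot be told apart. The tissue label was read against 8 measured adipocyte markers, all of which were at or above the median gene, with Adipoq between 10.35 and 10.57 and a summed linear signal of the list between 24508 and 26051 per array. Across all genes, Pearson's r between pairs of arrays ran from 0.986 to 0.991. Liver markers stood out on the LTKO array (all 8 higher than in its control, median 1.48), as did epididymis markers (all 6, median 2.13) and testis and sperm markers (6 of 7, median 2.08, with Adam5 at 3.06 and Smcp at 3.001). The exception, Odf1, was at −0.26 and was bright on every array, between 10.31 and 10.66. Skeletal muscle and mesothelial markers stood out on the Irs1/2-flox control array, and in LDKO all 8 of each were lower than there, with medians of −0.74 and −0.65. The mesothelial markers Krt8, Krt18 and Krt19 were however highest in LTKO, at 7.20, 6.75 and 5.69. They read 7.05, 6.73 and 5.57 on the Irs1/2-flox control array. Macrophage markers were lower on both Cre arrays than on their own controls, all 8 in LDKO (median −0.36, with Folr2 at −1.16) and 7 of 8 in LTKO (median −0.38). The summed linear signal of the muscle list was 939 on that control array and 393 to 506 on the others, that of the mesothelial list 1728 against 971 to 1082, that of the liver list 1456 in LTKO against 291 to 358, and that of the epididymis list 695 against at most 105. That of the macrophage list was 3783 and 3335 on the control arrays, 2875 in LDKO and 2677 in LTKO. The floxed genes are deleted in hepatocytes, so their level in fat checks no label; Irs2 lay between 7.62 and 7.96.

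None of the 9 clock genes differed 2-fold between any of the groups compared. The largest single difference lay between the arrays without Cre, where Per3 was 0.68 higher in the Irs1/2:FoxO1-flox control than in the Irs1/2-flox control. Among all genes that pass the filter on dim signals, 1.2% were 2-fold apart in LDKO against its control, 1.78% in LTKO against its control, 0.77% between the controls and 2.11% in LTKO directly against LDKO. The filter kept genes whose higher array in a comparison reached the median gene (5.15), and all 9 clock genes passed it in every comparison.

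The activator arm was lower on the arrays of the Irs1/2:FoxO1-flox line, with or without Cre. Arntl, whose product is the partner of CLOCK or NPAS2, read 7.40 and 7.24 in the Irs1/2-flox line (control, then LDKO) and 6.97 and 7.04 in the Irs1/2:FoxO1-flox line (control, then LTKO). The higher array of the Irs1/2:FoxO1-flox line minus the lower array of the other line was −0.20. Npas2, which can stand in for CLOCK, read 6.39, 6.49, 6.16 and 6.23 in the same order. For both genes the arrays divided by floxed line without overlap, and the Cre array lay within 0.16 of its own control: Arntl differed by −0.16 in LDKO and by 0.07 in LTKO, and Npas2 by 0.10 and 0.08.

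The period genes encode the inhibitors that accumulate and close the loop. Per1, whose transcription also responds quickly to glucocorticoids and cAMP, read 8.69 and 8.48 in the Irs1/2-flox line (control, then LDKO) and 8.92 and 9.03 in the Irs1/2:FoxO1-flox line (control, then LTKO). It was thus higher on both arrays of the Irs1/2:FoxO1-flox line than on both arrays of the other, the reverse of Arntl and Npas2, and differed by −0.22 in LDKO and 0.11 in LTKO from the respective control. Per3 read 6.29, 6.69, 6.97 and 6.65 in the same order. Its 2 controls were the extremes, and the Cre arrays lay between them, only 0.04 apart (LTKO minus LDKO, −0.04). Its differences of 0.40 in LDKO and −0.32 in LTKO therefore have opposite signs while the Cre arrays themselves read nearly alike.

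The cryptochromes, the partners of PER in the inhibitory complex, did not share a pattern. Cry1 was the steadiest of the 9 genes and read 5.62 and 5.87 in the Irs1/2-flox line (control, then LDKO) and 5.81 and 5.77 in the Irs1/2:FoxO1-flox line (control, then LTKO). Cry2 read 6.61, 6.12, 6.64 and 6.56, so a single array, LDKO, stood apart from its control (−0.49) while the controls differed by 0.03. Cry2 was alone among the 9 genes in having both Cre arrays below both controls, an arrangement found for 20.2% of the 11090 genes whose mean reached the median gene. Its LTKO difference was −0.08.

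The REV-ERB genes, repressors of Arntl, had their lowest values in LDKO. Nr1d1 read 8.53 and 8.25 in the Irs1/2-flox line (control, then LDKO) and 8.86 and 8.83 in the Irs1/2:FoxO1-flox line (control, then LTKO), which divides by floxed line as Per1 does. Nr1d2 read 8.14, 7.61, 7.98 and 8.17, and here the arrays of the lines overlapped and LDKO alone was low. The differences from the control in LDKO were −0.28 for Nr1d1 and −0.53 for Nr1d2, the latter larger in size than that of 91.2% of all genes past the filter. In LTKO they were −0.02 and 0.19.

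Dbp, the clock output, read 7.05 and 7.002 in the Irs1/2-flox line (control, then LDKO) and 7.30 and 7.64 in the Irs1/2:FoxO1-flox line (control, then LTKO). The LTKO array was the highest, by 0.35 over its control, a size larger than that of 86.9% of genes. Against its own control LDKO differed by −0.05. Set directly against LDKO, LTKO was 0.64 higher for Dbp, the only one of the 9 genes at least 1.5-fold apart in that comparison, where 7.98% of all genes were.

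**Figure D1:**
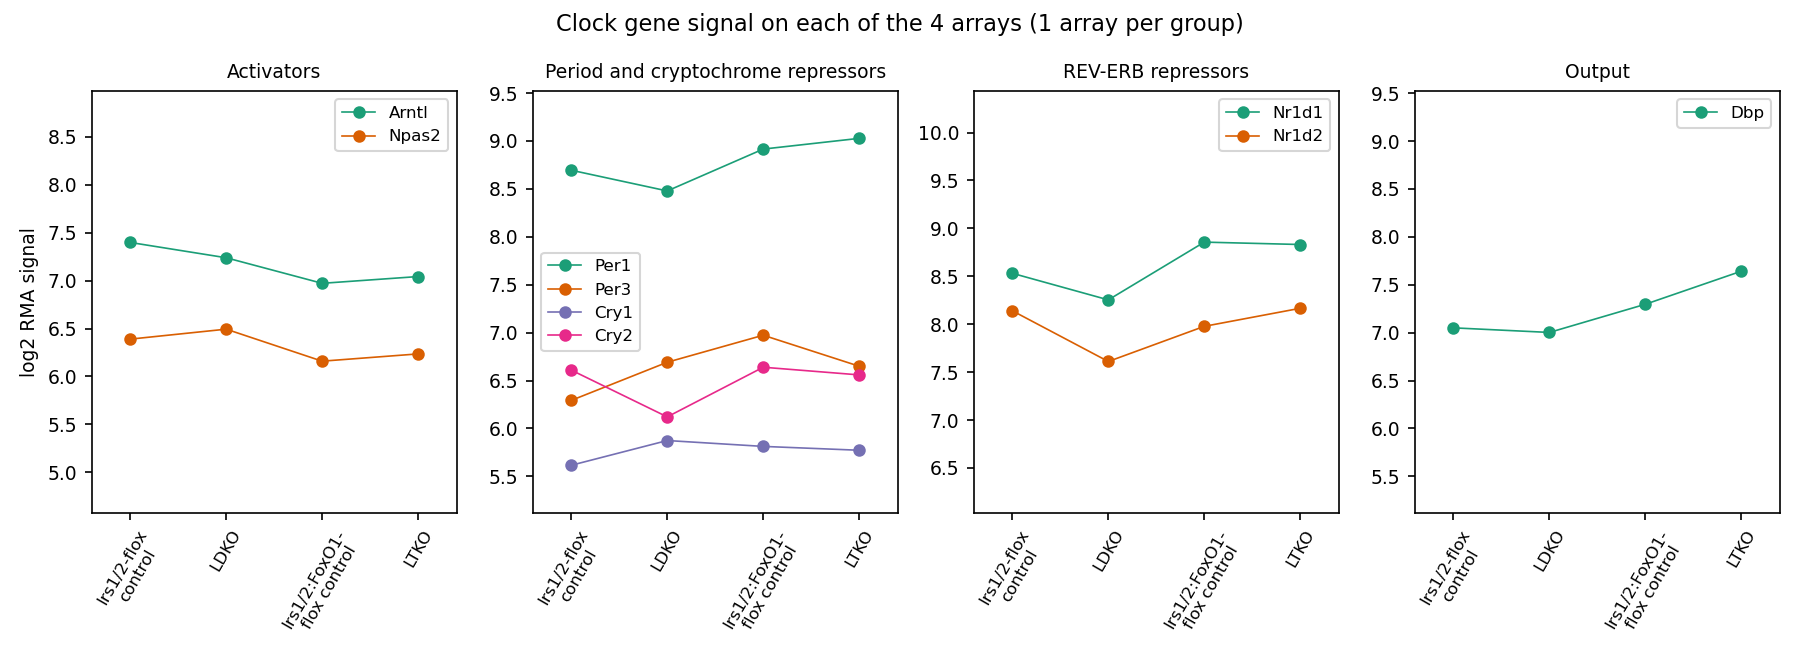
Log2 RMA signal (vertical axis, each panel spanning the same 4.4 units) of the 9 measured clock genes on the 4 arrays (horizontal axis), 1 point per array, joined by gene, in panels for activators, period and cryptochrome repressors, REV-ERB repressors and output. Arntl and Npas2 are lower on the Irs1/2:FoxO1-flox control and LTKO arrays, Per1, Nr1d1 and Dbp are higher there, and Nr1d2 and Cry2 are lowest in LDKO (7.61 and 6.12).

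Upstream sequences of 4 of the repressors are shown because the clock acts on these genes through short elements that can be read directly. Windows of 250 bases before a RefSeq transcript start (GRCm38.p6) were found for 9 of the 10 genes, the same 9 that were measured. They were searched on both strands for the E-box CACGTG, the E'-box CACGTT, the D-box TTATGNAA, the ROR element TAGGTCA or TGGGTCA and the cAMP response element TGACGTCA, and no match overlapped a match of another motif. The windows of Cry2, with an E'-box on the opposite strand 166 bases before the start, and of Nr1d2, with no match, are not shown. The 4 windows that follow run 5′ to 3′ on the strand of the gene, with matches in capitals.
Per1, chr11:69098699-69098948, plus strand: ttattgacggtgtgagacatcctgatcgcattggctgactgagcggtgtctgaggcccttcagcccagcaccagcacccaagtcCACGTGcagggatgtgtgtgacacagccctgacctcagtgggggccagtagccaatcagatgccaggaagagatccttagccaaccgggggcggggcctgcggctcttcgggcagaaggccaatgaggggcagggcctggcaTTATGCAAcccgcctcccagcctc
Per3, chr4:151044666-151044915, minus strand: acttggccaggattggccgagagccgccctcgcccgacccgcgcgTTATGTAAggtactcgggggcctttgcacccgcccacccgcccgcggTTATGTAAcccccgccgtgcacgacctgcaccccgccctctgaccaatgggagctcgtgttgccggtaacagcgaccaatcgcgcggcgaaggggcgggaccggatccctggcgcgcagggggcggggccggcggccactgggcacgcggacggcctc
Cry1, chr10:85185055-85185304, minus strand: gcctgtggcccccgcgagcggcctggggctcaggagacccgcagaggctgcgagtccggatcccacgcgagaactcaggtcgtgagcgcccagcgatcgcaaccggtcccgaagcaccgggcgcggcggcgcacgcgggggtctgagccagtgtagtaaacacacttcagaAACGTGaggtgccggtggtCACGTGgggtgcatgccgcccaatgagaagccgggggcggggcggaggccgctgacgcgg
Nr1d1, chr11:98775378-98775627, minus strand: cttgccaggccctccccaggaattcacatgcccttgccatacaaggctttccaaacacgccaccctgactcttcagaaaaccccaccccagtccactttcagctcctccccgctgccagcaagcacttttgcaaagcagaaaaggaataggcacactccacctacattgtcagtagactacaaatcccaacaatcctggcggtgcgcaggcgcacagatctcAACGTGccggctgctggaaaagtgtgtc
Per1 holds an E-box that begins 166 bases before the start and a D-box 24 bases before it. Per3 holds 2 D-boxes, 205 and 158 bases before the start, with no E-box in the window. Cry1 holds an E'-box on the opposite strand and an E-box, 79 and 60 bases before the start, and Nr1d1 an E'-box on the opposite strand 28 bases before it. The second Per1 window holds no match.

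Over the 9 genes, 2 had an E-box (Per1 and Cry1), 3 an E'-box (Cry1, Cry2 and Nr1d1) and 2 a D-box (Per1 and Per3). A gene was counted where any of its windows matched (Arntl and Per1 have 2 each), whereas the shares that follow are per window. Of all 32851 windows, 6.02% held an E-box, 3.85% an E'-box, 3.07% a D-box, 5.38% a ROR element and 1.55% a cAMP response element. No window of Arntl, Npas2, Nr1d2 or Dbp held any of these letters, which says only that they are not in these windows. The genes with an E-box did not share a pattern on the arrays: Per1 divided by floxed line, as given above, and Cry1 did not. Nor did those with a D-box, since Per1 was lowest in LDKO and Per3 in the Irs1/2-flox control.

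**Figure D2:**
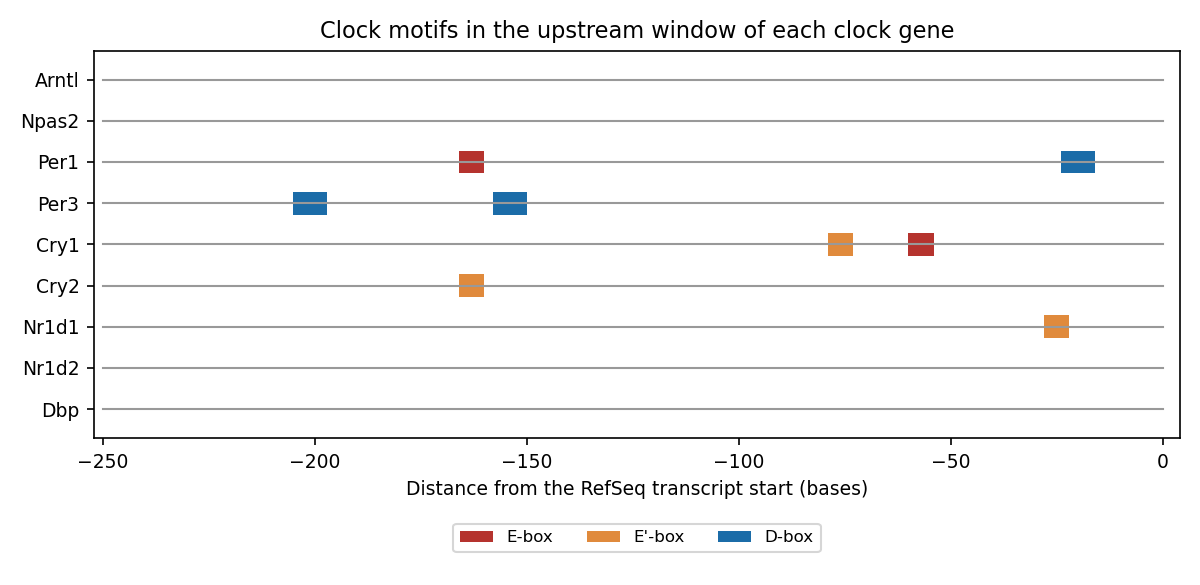
Positions of E-boxes, E'-boxes and D-boxes (coloured blocks, to scale) in the 250 bases before the most upstream RefSeq transcript start of each of the 9 clock genes; the horizontal axis is the distance from the start in bases. Per1 and Cry1 hold an E-box, Per3 holds 2 D-boxes, and Arntl, Npas2, Nr1d2 and Dbp hold none of the 3 motifs.

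The first comparison asks how the fat clock differs when hepatocytes lack Irs1 and Irs2. In LDKO 6 of the 9 genes were lower than in the Irs1/2-flox control (Arntl, Per1, Cry2, Nr1d1, Nr1d2 and Dbp) and 3 were higher (Npas2, Per3 and Cry1), and 56.7% of all genes past the filter were lower. By arm, the median difference was −0.03 over the 2 activators, 0.02 over the 4 period and cryptochrome genes, −0.40 over the 2 REV-ERB genes and −0.05 for Dbp. Of the 3 arms with several genes, only the REV-ERB arm had all its members on one side, and that arm has only 2 genes. In size, Nr1d1 differed less in LDKO (−0.28) than between the controls (0.33), and Nr1d2 differed more (−0.53 against −0.16). At 1.2-fold, a smaller size taken up after the values were seen, Nr1d1, Nr1d2 and Cry2 were lower and Per3 higher, 4 of 9 genes, against 33.1% of all genes. None reached 1.5-fold, which 6.74% of all genes did.

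These values rest on which control is used. Against the Irs1/2:FoxO1-flox control, the activator median in LDKO was 0.30, that of the period and cryptochrome genes −0.36, that of the REV-ERB genes −0.48 and Dbp −0.29. The REV-ERB genes were thus lower in LDKO than in either control, and so were Per1, Cry2 and Dbp. LDKO was the lowest of the 4 arrays for 5 of the 9 genes (Per1, Cry2, Nr1d1, Nr1d2 and Dbp), and it was the lowest for 38.6% of the 11090 brighter genes.

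Glucocorticoid-responsive genes were low on the same array. Of 12 such genes 11 were lower in LDKO than in its control, with a median of −0.62, beside 56.7% of all genes past the filter. LDKO was the lowest of the 4 arrays for 9 of them, beside 38.6% of the brighter genes. These sizes rest on which control is used, since 10 of the 12 were also lower in the Irs1/2:FoxO1-flox control than in the Irs1/2-flox control (median −0.32). Against its own control, the ErbB feedback inhibitor Errfi1 differed in LDKO by −1.17, the transcription factor gene Cebpd by −0.92 and the metallothionein Mt2 by −0.81. Of 9 fasting-responsive genes, of which Pdk4 is on the former list too, 8 were lower, with a median of −0.42 and the ubiquitin ligase Fbxo32 at −0.95. The 12 immediate early genes were mixed, 5 higher and 7 lower (median −0.09). The part of these lists, of the muscle and mesothelial signal of the control array and of the lower macrophage markers in the clock gene values was not tested.

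**Figure D3:**
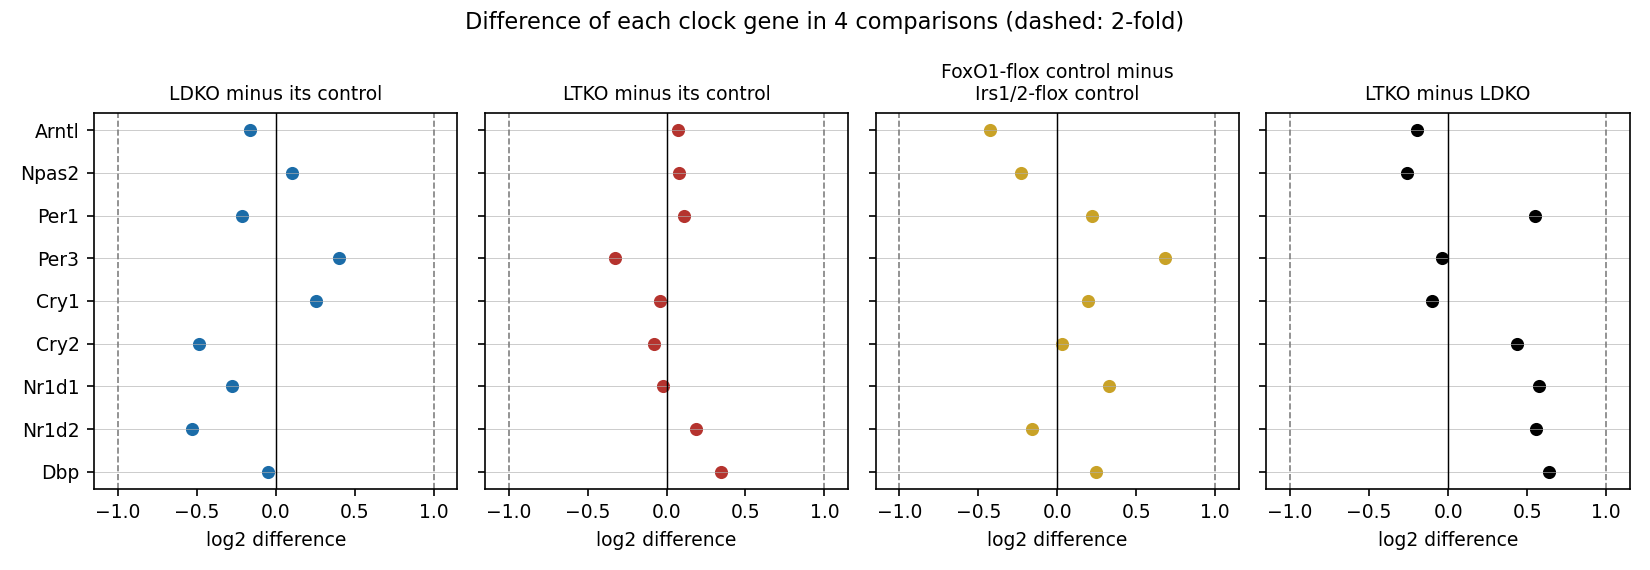
Log2 difference (horizontal axis) of each of the 9 clock genes in 4 comparisons, 1 array against 1 array, with dashed lines at 2-fold. No point reaches a dashed line; the REV-ERB genes and Cry2 lie to the left in LDKO against its control and to the right in LTKO minus LDKO.

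The second comparison asks the same with hepatic Foxo1 absent as well. In LTKO 5 of 9 genes were higher than in the Irs1/2:FoxO1-flox control (Arntl, Npas2, Per1, Nr1d2 and Dbp) and 4 were lower, where 42.8% of all genes were higher. The arm medians were 0.07 for the activators, −0.06 for the period and cryptochrome genes, 0.08 for the REV-ERB genes and 0.35 for Dbp. At 1.2-fold Dbp was higher and Per3 lower, 2 of 9 genes, against 22.2% of all genes, and none reached 1.5-fold, which 4.41% did. Against the Irs1/2-flox control the medians were −0.26, 0.24, 0.16 and 0.59, so of the 4 medians those of the REV-ERB arm and Dbp kept the sign. By gene, Per1, Cry2, Nr1d2 and Dbp kept it (0.33, −0.05, 0.03 and 0.59), and Nr1d1 went from −0.02 to 0.30. The REV-ERB median of 0.08 rests on Nr1d2, without which it is the −0.02 of Nr1d1. In LTKO 9 of 12 glucocorticoid-responsive genes were higher than in the control (median 0.17), as were 10 of 12 immediate early genes (median 0.21), with Egr1 at 0.75 and Fos at 0.73. The fasting-responsive genes were lower for 6 of 9 (median −0.14). The part of these lists, of the liver, epididymis and testis signal of the LTKO array and of the lower macrophage markers in the clock gene values, that of Dbp among them, was not tested.

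The third comparison sets the controls against each other and shows how far arrays lie apart when neither carries Cre. The median size of the difference over the 9 clock genes was 0.23 between the controls, 0.26 in LDKO against its control and 0.08 in LTKO against its control. Over all genes past the filter it was 0.16, 0.18 and 0.13, so the clock genes lay above it between the controls and in LDKO and below it in LTKO. In the Irs1/2:FoxO1-flox control both activators were lower (median −0.33), all 4 period and cryptochrome genes were higher (median 0.21) and Dbp was higher by 0.25, while Nr1d1 was at 0.33 and Nr1d2 at −0.16. The median over all genes past the filter was 0.03, and 55.5% of them were higher. At 1.2-fold 3 of 9 clock genes were apart, Arntl lower and Per3 and Nr1d1 higher, against 28.7% of all genes, and Per3 alone passed 1.5-fold, where 4.55% did. This comparison shares a control with each of the Cre comparisons. Here 10 of 12 glucocorticoid-responsive genes (median −0.32) and 10 of 12 immediate early genes (median −0.48) were lower in the Irs1/2:FoxO1-flox control, while Per1 was 0.22 higher, and all 8 muscle markers (median −0.61) and all 8 mesothelial markers (median −0.52) were lower. Of the fasting-responsive genes 5 of 9 were higher (median 0.09), and of the macrophage markers 6 of 8 were lower (median −0.17). Their part in the clock gene values was not tested.

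Set directly against each other, without the controls, LTKO and LDKO had the activators and the REV-ERB genes on opposite sides. Both activators were lower in LTKO (Arntl at −0.20 and Npas2 at −0.26), and both REV-ERB genes were higher (Nr1d1 by 0.58 and Nr1d2 by 0.56), as were Dbp by 0.64, Per1 by 0.55 and Cry2 by 0.44. Per3 and Cry1 were at −0.04 and −0.10. These 5 genes were at least 1.2-fold higher and no other was as far apart, so 5 of 9 passed that size, against 34.6% of all genes in either direction and 21.4% in that one. At any size 57.4% of all genes were higher in LTKO. The direct difference also holds any difference between the floxed lines, from which it cannot be told apart. In it 11 of 12 glucocorticoid-responsive genes were higher in LTKO too, by a median of 0.43, with Fkbp5, a chaperone of the glucocorticoid receptor, at 0.98. So were 6 of 9 fasting-responsive genes (median 0.35), all 8 liver, all 6 epididymis and all 7 testis and sperm markers (medians 1.96, 2.17 and 2.07), while 5 of 8 macrophage markers were lower (median −0.03) and the immediate early genes were 6 higher and 6 lower. Their part was not tested.

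By floxed line, with the Cre array and its control on one side, 5 of 9 clock genes did not overlap. Both activators were lower on both arrays of the Irs1/2:FoxO1-flox line, and Per1, Nr1d1 and Dbp were higher there. Of the 11090 brighter genes 37.2% divided by line in the same way, 13.9% lower and 23.4% higher. With 9 genes, 1 gene is 11.1% of the count. The means of the lines differed by −0.31 for Arntl, −0.24 for Npas2, 0.38 for Per1, 0.45 for Nr1d1 and 0.44 for Dbp. LDKO and LTKO lay on opposite sides of their own controls for 6 of 9 genes (Arntl, Per1, Per3, Cry1, Nr1d2 and Dbp), as they did for 49.9% of the brighter genes. By Cre, 1 of 9 genes did not overlap, Cry2, where 30.6% of the brighter genes did not. Both groupings were taken up after the values were seen. The hour of collection of each array is not stated, so floxed line and hour cannot be told apart here.

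The clock genes ranged over the 4 arrays by 0.26 (Cry1) to 0.68 (Per3), with a median of 0.55. The median range of the 11090 brighter genes was 0.33, and 8 of the 9 clock genes lay above it. None lay above their 90th percentile, 0.69. The order from the steadiest was Cry1, Npas2, Arntl, Cry2, Per1, Nr1d2, Nr1d1, Dbp and Per3, and with 1 array per group no neighbours in that order can be separated.

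**Figure D4:**
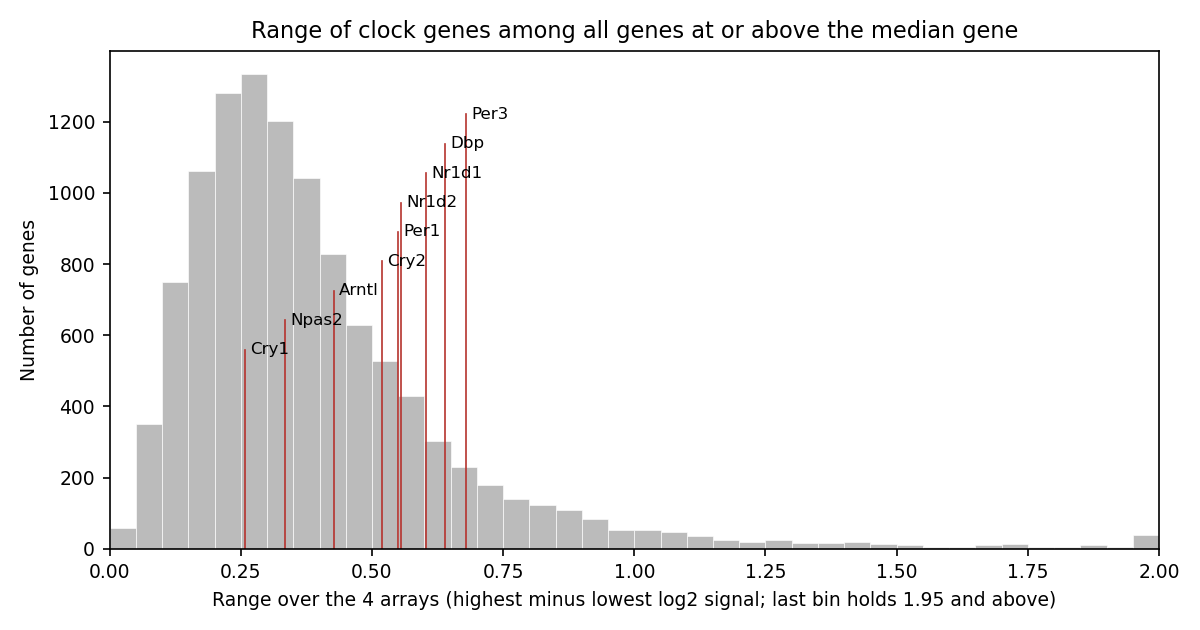
Number of genes (vertical axis) by range over the 4 arrays, highest minus lowest log2 signal (horizontal axis), for the 11090 genes whose mean reached the median gene, with a line at the range of each of the 9 clock genes (line heights only separate the names). The clock genes lie between 0.26 and 0.68, and 8 of 9 are above the median gene's 0.33.

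The remaining clock machinery was read from a list of 20 other genes, of which 17 were measured and the other 3 were not analysed here. No gene of the 17 was 2-fold apart in any comparison, nor 1.5-fold. In LDKO 8 were higher and 9 lower than in the control (median −0.09), and in LTKO 11 were higher and 6 lower (median 0.05); between the controls 9 were higher and 8 lower, and directly 11 were higher in LTKO. Clock itself, the usual partner of ARNTL, read 10.65 and 10.41 in the Irs1/2-flox line (control, then LDKO) and 10.35 and 10.49 in the Irs1/2:FoxO1-flox line (control, then LTKO). Its extremes were the same arrays as those of Arntl, and Rora, the receptor that activates Arntl, had the same extremes too, with 7.60 and 7.26 in the controls. Unlike Arntl, neither Clock nor Rora divided by floxed line. LTKO minus LDKO was 0.08 for Clock and 0.13 for Rora, of opposite sign to the −0.20 of Arntl. Both Clock and Rora were lower in LDKO than in its control (−0.24 and −0.28) and higher in LTKO (0.13 and 0.19), and against the other control LDKO read 0.06 and 0.07 higher.

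Among the regulators of protein stability, Btrc, a ubiquitin ligase subunit that targets PER, ranged by 0.10 over the 4 arrays. The kinase gene Csnk1e, whose product phosphorylates PER, was at −0.28 in LDKO and −0.04 in LTKO. Timeless was at 0.44 in LDKO and −0.19 in LTKO, but with Rorb, Fbxl21, Ciart, Arntl2 and Bhlhe41 it had a mean below the median gene, where RMA compresses differences. Of the 17 genes 11 had a mean at or above it.

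The PAR bZIP relatives of Dbp split the same way by line. Tef read 5.47, 5.55, 6.01 and 5.95, in the order used above, and Hlf read 5.67, 5.89, 5.98 and 6.03. Both were higher on both arrays of the Irs1/2:FoxO1-flox line, as Dbp was, although the second, dimmer probe set of Tef read 4.98, 5.41, 5.16 and 4.83 and did not divide so. Nfil3, which competes with these factors for D-boxes, ranged by 0.17. Of the 17 genes 7 divided by line (5 higher and 2 lower), or 41.2%, beside 37.2% of the brighter genes. These shares are over unlike sets, since the 17 include genes with a mean below the median gene. Arntl2, Fbxl21 and Ciart, all such dim genes, divided with gaps between the lines of −0.04, −0.007 and 0.008.

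LTKO was the highest array for 5 of the 17 other clock genes, or 29.4%, and for 3 of the 9 clock genes (Per1, Nr1d2 and Dbp), where it was for 20.7% of the brighter genes. Some of the 17 are dimmer than that set. All 5 (Hlf, Bhlhe40, Bhlhe41, Usp2 and Wee1) belong to the 9 output genes and none to the 8 core and regulator genes. Of them, Hlf and Wee1 were 0.05 and 0.08 above their control, and the mean of Bhlhe41 was below the median gene. The part of the liver, epididymis and testis signal of the LTKO array in these values was not tested. Usp2, a rhythmic deubiquitinase, read 6.76, 6.56, 6.59 and 7.07 and was 0.49 above the control in LTKO, larger in size than 93.5% of genes. The E-box repressors Bhlhe40 and Bhlhe41 were at 0.33 and 0.40 there. Wee1, a cell cycle kinase under E-box control, was at −0.19 in LDKO and 0.08 in LTKO. Nampt, the rate-limiting enzyme of NAD salvage, lay between 8.76 in LTKO and 9.001 in the Irs1/2:FoxO1-flox control, so not all outputs had their highest value in LTKO.

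**Figure D5:**
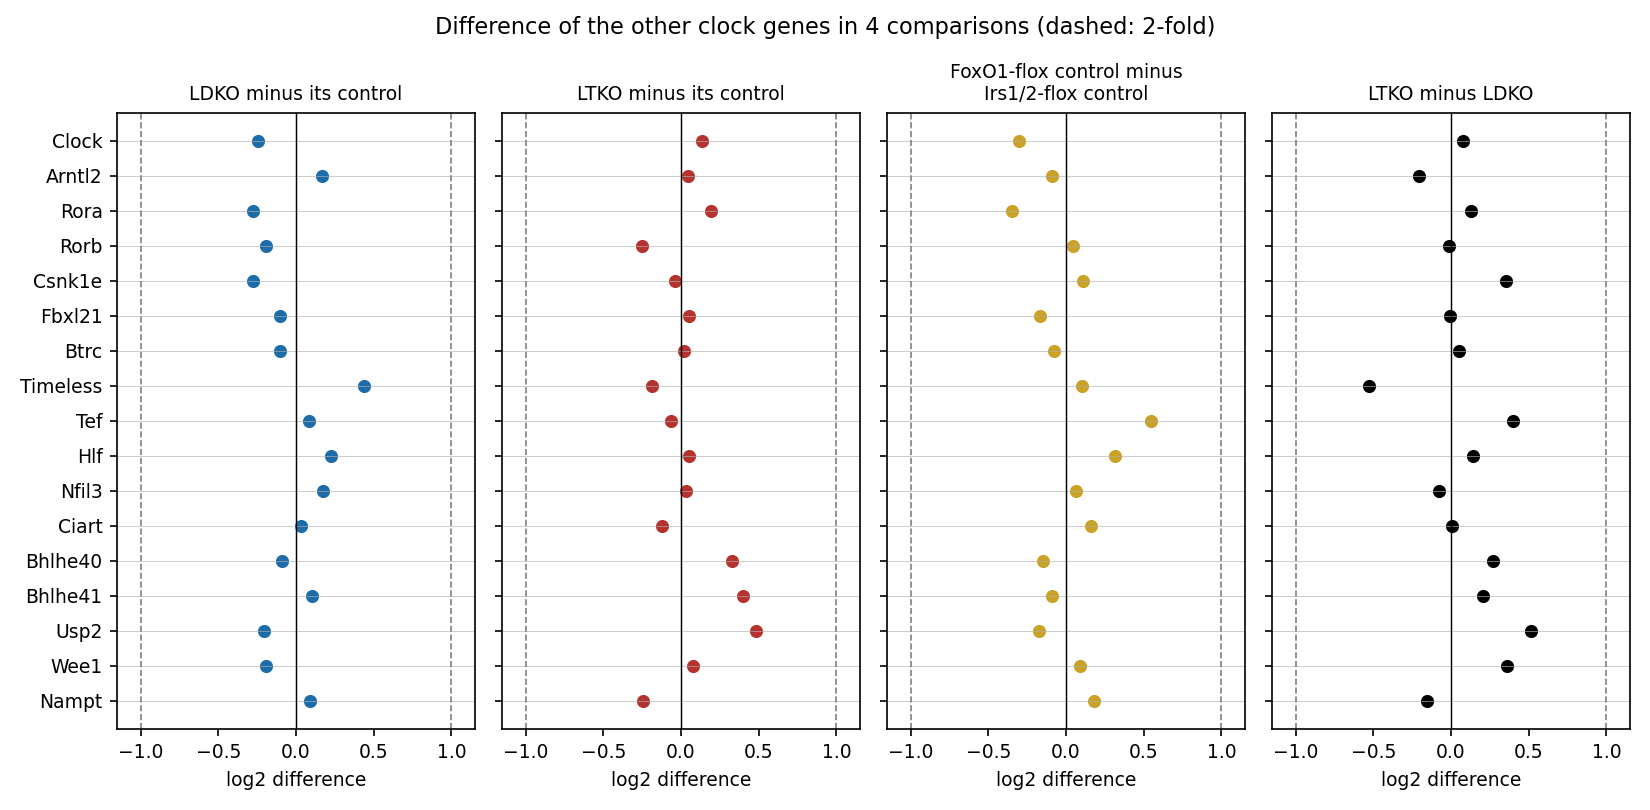
Log2 difference (horizontal axis) of the 17 measured other clock genes in the 4 comparisons, 1 array against 1 array, with dashed lines at 2-fold. No gene reaches a dashed line; Usp2, Bhlhe41 and Bhlhe40 lie farthest to the right in LTKO against its control (0.49, 0.40 and 0.33).

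Across all 354 named genes that were bright enough and ranged by at least 1, those whose centred values over the 4 arrays lay nearest to Arntl were Pttg1, Stmn2 and Efemp1, at root mean square differences of 0.23, 0.25 and 0.28. Nearest to Dbp were Plekhb1, Phf7 and Ank3, at 0.16, 0.17 and 0.17. Plekhb1 read 6.60, 6.42, 6.72 and 7.45 in the order used above, and Pttg1 read 6.54, 5.91, 5.52 and 5.70. No clock gene could be among these, since none ranged by 1. Arntl and Dbp themselves ranged by 0.43 and 0.64, less than any gene searched. Being nearest here therefore does not show that a gene changed as Arntl or Dbp did.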

How the data were processed

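RNA of 4 groups was hybridised to Affymetrix whole-transcript arrays, 1 array each, from 500 ng of total RNA per the labels' protocols. The deposited log2 signals, 1 per probe set, come from the authors' run of Affymetrix Expression Console with RMA, a method of background correction, quantile normalization and probe summary; the submitters' processing notes name both. Versions, and which arrays were normalized together, are not stated in the sources used here. RMA compresses differences of dim probe sets. Array medians ran from 4.68 to 4.73.

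Of 41345 probe sets 23521 list 1 gene symbol, 1814 several, and 16010 have no name here. Gene identifiers gave the current GRCm38.p6 symbol for 23328. A gene was the probe set with 1 symbol and the highest mean over the 4 arrays, giving 22180 genes. Differences were taken between arrays, with no test, and called by size (2-fold) among genes whose higher array reached the median gene. The members and lists were chosen with earlier results of these data known. Named genes were the 10 members, the measured genes of the other clock list, up to 3 genes of a context list by size, and the 3 genes nearest to Arntl and to Dbp. Promoter windows came from RefSeq (GRCm38.p6); their strand was checked on 874 overlapping pairs of windows. Some genes of the lists are not reported here. Steps were tested on simulated data. Alternatives were other fold thresholds, other filters, all probe sets of a gene, quantile normalization again, a loess curve (span 0.3), the other or both controls as reference, and for arms the mean or leaving out 1 member. The software was Python 3.11.15, statsmodels 0.14.6, pandas 2.3.3 and numpy 2.4.6.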

Additional observations from a re-analysis of the deposited data

Results flagged for a closer look

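With 1 array per group, a gene is listed here where LDKO and LTKO lay on opposite sides of their own controls; the difference between the lines was not tested. This held for 6 of 9 clock genes and 11 of 17 other clock genes, against 49.9% of the 11090 brighter genes. Some of the 17 are dimmer than that set. The value is the LTKO difference minus the LDKO difference. For an arm it is the median of this value over its genes, which need not equal the difference of the arm medians.

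Among the activators, Arntl was at 0.23, and the arm at 0.10. Among the repressors, Per1 was at 0.33, Per3 at −0.72 and Cry1 at −0.30, and the median of the period and cryptochrome genes was 0.015, since the members cancel. Nr1d2 was at 0.72 and the REV-ERB arm at 0.49. Dbp was at 0.39. For Per3 the controls were 0.68 apart while LTKO minus LDKO was −0.04.

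Of the other clock genes, Usp2 was at 0.69, Rora at 0.47, Bhlhe40 at 0.42, Clock at 0.38, Wee1 at 0.27, Fbxl21 at 0.16 and Btrc at 0.12. Timeless was at −0.63, Nampt at −0.34, Ciart at −0.15 and Tef at −0.15.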

How the results depend on the processing

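No paired analysis was possible because each group has 1 array. Differences were compared with 0.29, the SD over genes of the difference between the control arrays. Averaging all probe sets could not change the 36 member differences, since each of the 9 genes has 1 probe set that names it alone. Of the 36, 35 kept their sign with quantile normalization again and 33 with a loess curve removed, and the largest change under these was 0.08. In LDKO, Dbp changed from −0.05 to 0.007 with quantile normalization again and to 0.03 with the loess curve removed. The count of clock genes lower in LDKO thus rests in part on the processing. The activator median in LDKO changed from −0.03 to 0.02 and 0.04 in the same way. With the other control as reference 7 of 18 member differences changed sign and with both controls 6 of 18. The arms that moved by more than 0.29 did so with the other control: activators to 0.30 in LDKO and −0.26 in LTKO, period and cryptochrome genes to −0.36 and 0.24.

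The count of clock genes 2-fold apart was 0 under each reference and normalization tried. The filters bear only on the counts of all genes, since the clock genes were counted without a filter. At 1.5-fold it was 1 between the controls and 1 in LTKO minus LDKO; at 1.2-fold, added after the data were seen, it was 4 in LDKO, 2 in LTKO, 3 between the controls and 5 in LTKO minus LDKO. Of all genes, 138 were 2-fold apart in LDKO, 205 in LTKO, 88 between the controls and 246 in LTKO minus LDKO. At 1.5-fold these were 777, 509, 520 and 931, at 3-fold 30, 77, 12 and 65, and at 1.2-fold 3822, 2556, 3283 and 4037. A filter set at the 70th percentile left LTKO with 83 and LTKO minus LDKO with 143. For Tef, LTKO minus LDKO was 0.40 by the brighter probe set and −0.09 by the mean of both.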
